A study of Sus scrofa with 5 samples.

Results

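Serum and plasma are both the liquid part of blood: plasma still holds its clotting factors, and serum is what is left once the blood has clotted. MicroRNAs (miRNAs) are short RNAs cut from either arm of a hairpin precursor, named 5p and 3p, which guide silencing proteins to messenger RNAs through a short stretch near their 5′ end, the seed. Part of the miRNA in blood travels in exosomes, small vesicles that blood cells, vessel walls and organs such as the liver release. Many blood miRNAs are known from particular sources, among them miR-451 from red cells, miR-150 from lymphocytes and miR-122 from liver.

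The comparison set serum exosomes against plasma exosomes of pigs of the Chinese breed Rongchang, sampled on postnatal day 180, with 1 library each. A commercial isolation reagent was used for the exosomes, and small RNA was gel-purified by size, given adaptors, amplified and sequenced, per the labels' protocols. These are 2 of the 5 libraries of the series, the others being from semen, urine and bile of pigs of the same breed and age. The labels do not say how many animals gave each fluid, their sex, whether both fluids came from the same blood or which anticoagulant was used. With 1 library a fluid, every difference below is one between these libraries, without a replicate check and without a p-value.

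Plasma was dominated by a few miRNAs, so 6 of them were taken out of both libraries: miR-378, miR-378b-3p, miR-320, miR-423-5p, miR-296-3p and miR-9820-5p. They were chosen by their plasma counts, ranks 1 to 5 and 7 there, but not by these counts alone. miR-148a-3p, with 16309 counts in plasma and 85536 in serum, was kept, while miR-9820-5p, with 12740 in plasma and 10 in serum, was removed. All 6 took a larger share of the counts in plasma than in serum, so the choice was not independent of the difference measured here. The values given for the 6 are therefore a description. miR-378 took 1.43% of all miRNA counts in serum and 41.4% in plasma, miR-320 took 0.961% in serum and 25.6% in plasma, and miR-423-5p took 1.47% in serum and 16.9% in plasma. Together they held 18943 of 473168 miRNA counts in serum (4.003%, 95% interval 3.95 to 4.06) and 1033969 of 1153755 in plasma (89.6%, 89.6 to 89.7). What remained was 454225 counts in serum and 119786 in plasma, and each miRNA was rescaled to that remaining sum and is given in CPM, its counts per 1000000 remaining counts. Of 411 listed miRNAs, 196 had 10 or more counts in at least 1 of the fluids and were compared: 174 were listed above 0 in serum, 155 in plasma and 133 in both. The files list no value between 0 and 10, so all 209 miRNAs outside the comparison were at 0 in both libraries, and the 6 just inside it had exactly 10 counts in 1 of them.

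A listed 0 stands for anything under 10 counts, which is 22.0 CPM in serum and 83.5 CPM in plasma. Ratios against a listed 0 were computed against 10 counts and are therefore bounds. Intervals beside ratios are exact 95% intervals for counting error only. They leave out the variation between animals, blood collections and library preparations, and no molecular identifiers are named for the reads.

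Without the 6 miRNAs a small number of miRNAs held much of the remaining counts in both fluids, more so in serum. The 10 most abundant held 67.5% (67.4 to 67.7) of the remaining counts in serum and 54.3% (54.0 to 54.6) in plasma. In serum 6 miRNAs made up 50% of the counts and 30 made up 90%, while in plasma 9 and 41 were needed. The upper ends of the lists overlapped in part. Of the 10 most abundant miRNAs 5 were common to both fluids, of the 20 most abundant 12, and of the 50 most abundant 36. Spearman's rho between the fluids across the 196 miRNAs was 0.59, and 0.43 across the 113 miRNAs with 100 or more counts in either. These coefficients describe the order of the miRNAs, which within a library share its depth and its total.

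At the 2-fold limit 39 of the 196 miRNAs (19.9%) were higher in serum and 80 (40.8%) were higher in plasma. A further 43 were listed in both and lay within 2-fold. The remaining 34 were at 0 in plasma with a serum count too low to place them. The limit of 10 counts acts unequally on the fluids, because serum kept more counts. Against a listed 0 in serum, 10 plasma counts already give a bound of 3.79 times. All 22 miRNAs at 0 in serum were therefore called higher in plasma, while 7 of the 41 at 0 in plasma were called higher in serum. Among the 133 miRNAs listed in both, 32 (24.1%) were higher in serum and 58 (43.6%) in plasma, and the median log2 ratio of serum over plasma was -0.57 (quartiles -1.92 and 0.97). The 39 serum miRNAs took 51.2% of the remaining counts in serum and 11.9% in plasma. The 80 plasma miRNAs took 7.56% in serum and 52.0% in plasma, and the 43 miRNAs within 2-fold took 41.0% in serum and 36.1% in plasma. Serum kept 3.79 times the remaining counts of plasma. Scaled down to the remaining plasma depth, with serum values under 10 then at 0, the counts were 39 miRNAs higher in serum and 72 in plasma.

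**Figure D1:**
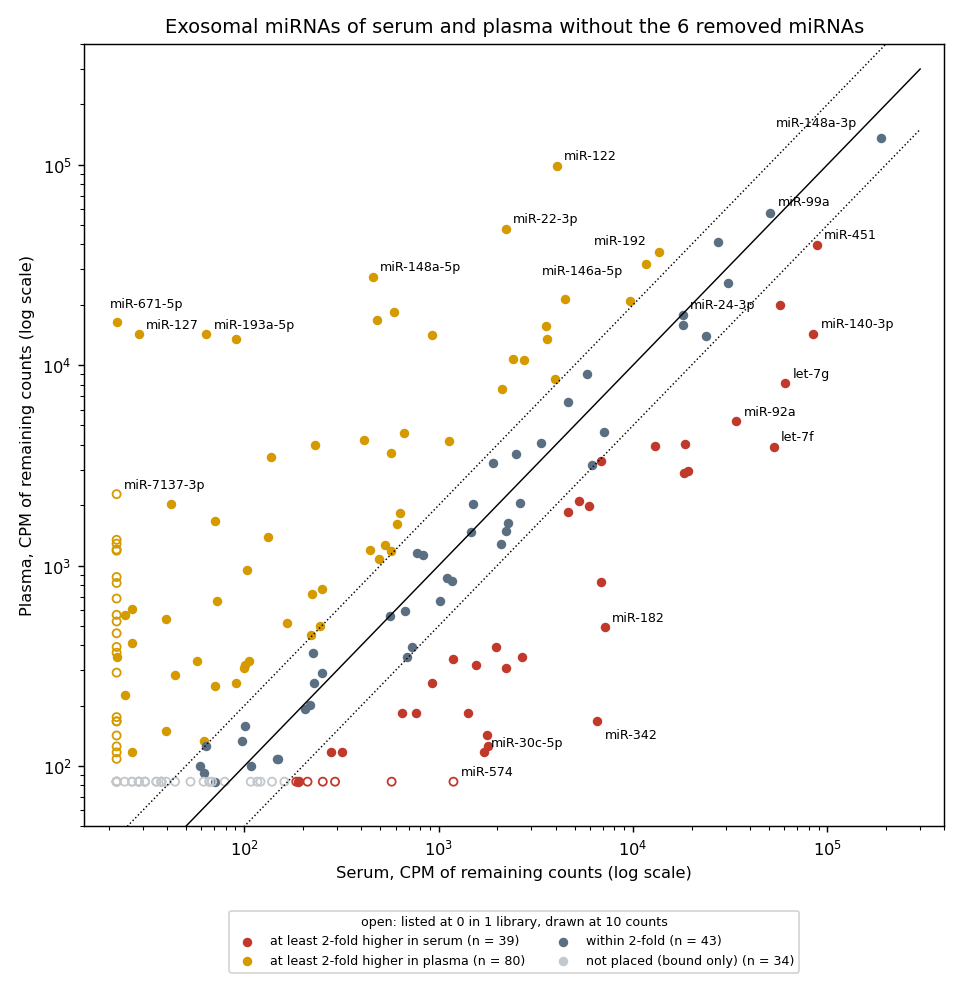
Level of each of the 196 miRNAs in serum (x axis) and plasma (y axis), in CPM of the counts that remain without the 6 removed miRNAs, on log scales; the solid line marks equal levels and the dotted lines 2-fold. The 39 miRNAs higher in serum lie below the lower dotted line and the 80 higher in plasma above the upper one, and open circles are miRNAs listed at 0 in 1 library, drawn at 10 counts.

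Direction depended on the scaling, because a library total moves every log2 ratio by the same constant. Of 7 other scalings 6 moved all ratios towards serum, by 0.35 with DESeq2 size factors, 0.62 with edgeR's trimmed mean of M-values (TMM), 0.63 when only miR-378, miR-320 and miR-423-5p were removed and 0.73 when the 6 leading serum miRNAs were removed as well. On the authors' RPM, values normalized to a larger library total, the shift was 1.37, and with nothing removed 3.21. A shift towards serum cannot undo a serum call, so it was fixed in advance that the 39 serum calls would hold here. Removal of the 6 serum leaders takes 5 of them out, and the other 34 held in the same way. Removal of miR-122 beside the 6, tried after the data had been seen, moved all ratios the other way, by -0.14 on the log2 scale, and miR-191 alone of the 39 then fell within 2-fold. Of the 80 plasma calls 72 held with DESeq2 size factors, 65 with TMM, 48 on the authors' RPM and 25 with nothing removed, where 29 others turned to 2-fold higher in serum. A log2 ratio that is less than 1.37 below 0 thus changes sign on the authors' RPM, and one that is less than 3.21 below 0 changes sign with nothing removed. None of the 43 miRNAs within 2-fold stayed there with nothing removed, and 14 stayed there under all the other shifts towards serum. Relative to the library total recovered from the authors' RPM, the remaining miRNAs made up 4.29% in serum and 1.66% in plasma.

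**Figure D2:**
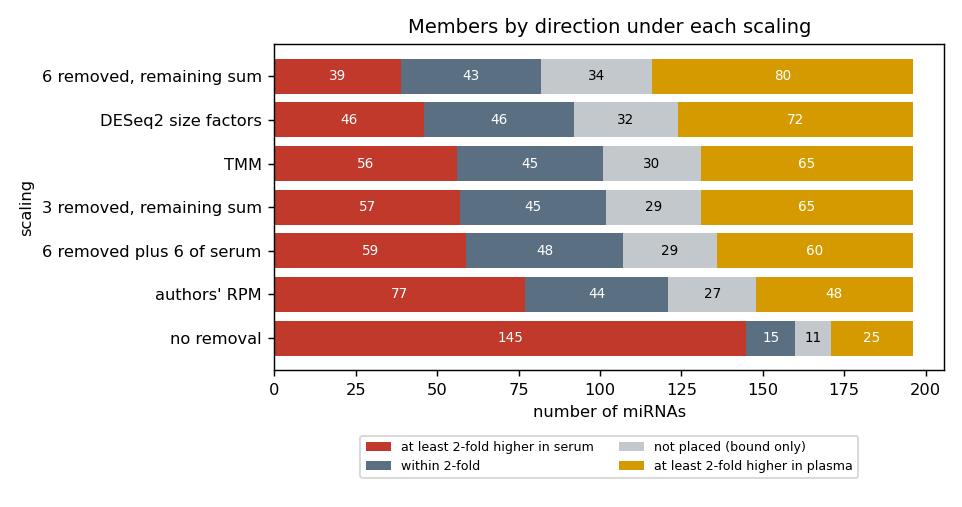
Number of the 196 miRNAs (x axis) that were at least 2-fold higher in serum, within 2-fold, not placed or at least 2-fold higher in plasma, under each of 7 scalings (y axis); the 6 serum leaders stay counted in the bar for their removal. The serum class holds 39 miRNAs with the 6 removed and 145 with nothing removed, while the plasma class holds 80 and 25.

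Without the 6 removed miRNAs both fluids were led by the same miRNA, miR-148a-3p. It was kept although its plasma count exceeded that of the removed miR-9820-5p, so its first rank in plasma follows from the choice of miRNAs removed. Ranks given for single miRNAs here and below are among the 196 compared. miR-148a-3p, abundant in liver, had 85536 counts (188312 CPM) in serum and 16309 counts (136151 CPM) in plasma, rank 1 in each, and its serum level was 1.38 times (1.36 to 1.41) that of plasma. miR-99a had 50931 CPM in serum and 57118 CPM in plasma, at ranks 7 in serum and 3 in plasma, a log2 ratio of -0.17. miR-21, found in most cell types, had 27359 CPM in serum and 41057 CPM in plasma and a log2 ratio of -0.59. miR-215, a relative of the liver and gut miRNA miR-192, had 30687 CPM in serum and 25804 CPM in plasma and a log2 ratio of 0.25, and miR-24-3p had 18059 CPM in serum and 17874 CPM in plasma and 0.01. These 5 were the most abundant miRNAs within 2-fold. miR-99a turned to the serum side under the 6 scalings that move ratios that way, and miR-21 under 5 of them, all but DESeq2 size factors.

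The other leaders of serum were higher there than in plasma. miR-451 had 40127 counts (88342 CPM) in serum and 4775 counts (39863 CPM) in plasma, 2.22 times (2.15 to 2.28) higher in serum, and held ranks 2 in serum and 6 in plasma. miR-140-3p, known from cartilage, had 38451 counts (84652 CPM) in serum and 1716 counts (14326 CPM) in plasma, 5.91 times (5.63 to 6.21) higher in serum, at ranks 3 in serum and 20 in plasma. miR-92a, a member of the proliferation-linked miR-17-92 cluster, had 15442 counts (33996 CPM) in serum and 630 counts (5259 CPM) in plasma, 6.46 times (5.97 to 7.01) higher in serum. let-7g, let-7i and let-7f, of the let-7 family known for restraining cell growth, completed the serum top 10 and are given with their family below.

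Among the remaining miRNAs, plasma had another set of leaders behind miR-148a-3p. miR-122, the main miRNA of hepatocytes, had 1842 counts (4055 CPM) in serum and 11836 counts (98809.5 CPM) in plasma, 24.4 times (23.2 to 25.6) higher in plasma, and stood at ranks 33 in serum and 2 in plasma. miR-22-3p had 1003 counts (2208 CPM) in serum and 5733 counts (47860.4 CPM) in plasma, 21.7 times (20.3 to 23.2) higher in plasma, at ranks 46 in serum and 4 in plasma. miR-148a-5p, the minor arm of the hairpin that leads both fluids after the removal, had 208 counts (458 CPM) in serum and 3301 counts (27558 CPM) in plasma. It was 60.2 times (52.3 to 69.6) higher in plasma, at ranks 84 in serum and 9 in plasma. These 3 stayed at least 2-fold higher in plasma under the 6 scalings that favour serum. miR-192, abundant in liver and gut, had 13595 CPM in serum and 36557 CPM in plasma, and miR-146a-5p, induced in immune cells by inflammatory signals, had 11701 CPM in serum and 32024 CPM in plasma. Their log2 ratios were -1.43 and -1.45, and both turned to the serum side with nothing removed.

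**Figure D3:**
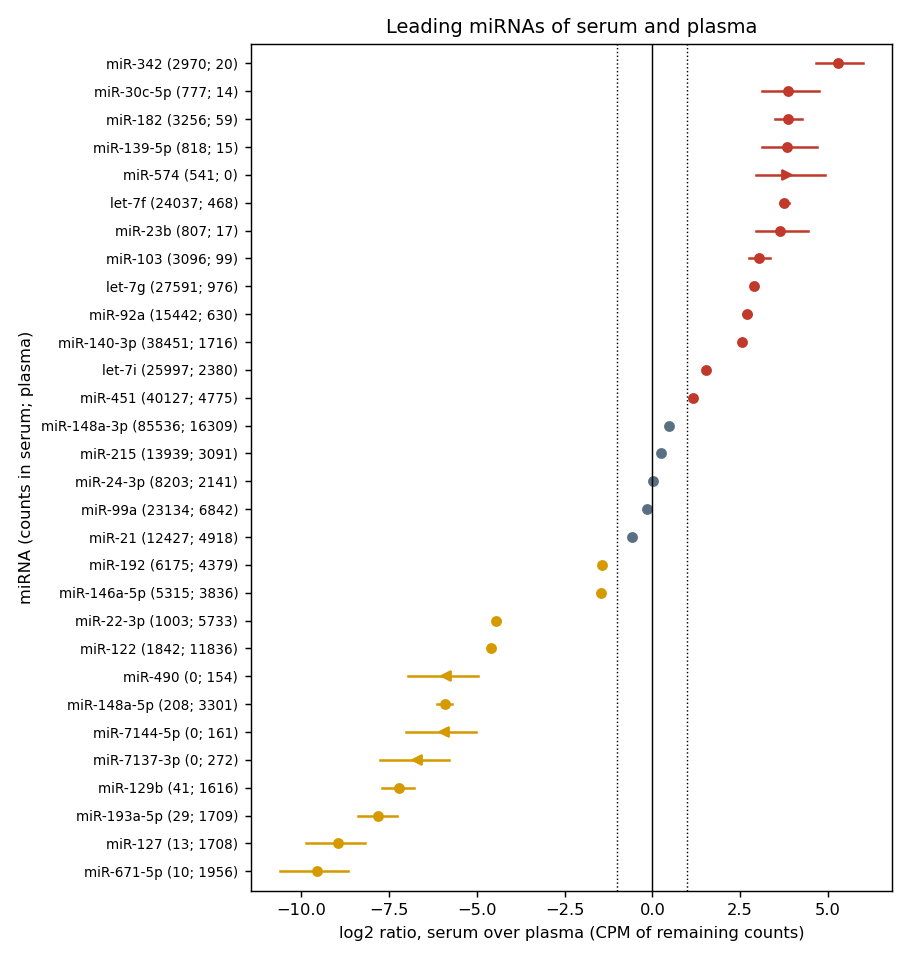
Log2 ratio of serum over plasma (x axis) for the 10 most abundant miRNAs of each fluid, the 8 furthest to either side and the 5 most abundant within 2-fold (y axis, with counts in serum and plasma). Lines are 95% counting intervals, triangles point the way in which a bound is open, dotted lines mark 2-fold, and values run between -9.53 for miR-671-5p and 5.29 for miR-342; miR-192 and miR-146a-5p change sign with nothing removed.

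Among miRNAs with 100 or more counts in either fluid, miR-342 stood furthest towards serum. This lymphocyte miRNA had 2970 counts (6539 CPM) in serum and 20 counts (167 CPM) in plasma, 39.2 times (25.3 to 64.2) higher in serum, and ranks of 25 in serum and 131 in plasma. miR-30c-5p had 777 counts in serum and 14 in plasma, 14.6 times (8.67 to 26.9) higher in serum. miR-182, a miRNA of sensory organs and epithelia, had 3256 counts in serum and 59 in plasma, 14.6 times (11.3 to 19.2) higher. miR-139-5p had 818 counts in serum and 15 in plasma, 14.4 times (8.67 to 25.8) higher in serum. miR-574 had 541 counts in serum and 0 in plasma and was at least 14.3 times (lower end 7.70) higher in serum. let-7f, given with its family below, came next. miR-23b and miR-103 followed with 12.5 times (7.77 to 21.6) and 8.25 times (6.75 to 10.18). The intervals of miR-30c-5p, miR-182, miR-139-5p and miR-23b overlap, so their order is not resolved at this depth. By rank, miR-574, miR-92b-3p, miR-342, miR-30c-5p and miR-139-5p moved most: miR-92b-3p had 260 counts in serum and 0 in plasma and ranks of 77 in serum and 176 in plasma. Rank 176 is the mean rank shared by all 41 miRNAs at 0 in plasma, miR-574 among them, and not a measured position.

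The miRNAs furthest towards plasma were nearly missing from serum. miR-671-5p had 10 counts (22.0 CPM) in serum and 1956 counts (16329 CPM) in plasma, 742 times (402 to 1549) higher in plasma, and ranks of 171 in serum and 17 in plasma. miR-127, from the imprinted DLK1-DIO3 locus, had 13 counts (28.6 CPM) in serum and 1708 counts (14259 CPM) in plasma, 498 times (291 to 938) higher in plasma. miR-193a-5p had 29 counts in serum and 1709 in plasma, 223 times (155 to 335) higher in plasma, and miR-129b had 41 counts in serum and 1616 in plasma, 149 times (109.7 to 209). For these 4 the serum counts are between 10 and 41 and set the width of the intervals. Another 3 were listed at 0 in serum: miR-7137-3p with 272 plasma counts was at least 103 times (lower end 55.2) higher in plasma, miR-7144-5p with 161 was at least 61.1 times (lower end 32.4) and miR-490 with 154 was at least 58.4 times (lower end 30.9). All 7 stayed at least 2-fold higher in plasma under the same 6 scalings.

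miRNAs known from blood cells were spread over both sides, as were all miRNAs compared. In exosomes of a whole fluid, fewer vesicles from a cell type and less of a miRNA in each vesicle cannot be told apart. Of 7 erythrocyte miRNAs 2 were higher in serum by 2-fold or more, 3 were higher in plasma, 1 lay within 2-fold and miR-15a, at 11 serum counts, was not placed; these shares are close to those of all miRNAs compared, 19.9% and 40.8%. Serum held more miR-451 and miR-16. miR-16 had 1221 counts (2688 CPM) in serum and 42 counts (351 CPM) in plasma, 7.67 times (5.64 to 10.7) higher in serum. miR-185 had 4485 CPM in serum and 21379.8 CPM in plasma and a log2 ratio of -2.25, miR-144, which is cut from the same transcript as miR-451, had 26 counts in serum and 40 in plasma and -2.54, and miR-363 had -1.26; these 3 turned to the serum side with nothing removed, miR-363 also on the authors' RPM. miR-486 was nearly level, with 18006 CPM in serum and 15937 CPM in plasma and a log2 ratio of 0.18. Summed, the list took 11.4% of the remaining counts in serum and 7.91% in plasma, but without miR-451 it stood at 25787 CPM in serum and 39262 CPM in plasma, and that lean to plasma turned with TMM. A ratio within a library does not depend on scaling: miR-451 over miR-23a, used on human blood as a sign of ruptured red cells, was 6.81 in serum (6.63 to 7.0004) and 10.1 in plasma (9.22 to 11.2). What part ruptured red cells had in the other differences was not tested.

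Of the 7 leukocyte miRNAs 2 were higher in serum, 3 higher in plasma and 2 within 2-fold, again near the 19.9% and 40.8% of all miRNAs compared. miR-150, a lymphocyte miRNA, had 1008 counts (2219 CPM) in serum and 37 counts (309 CPM) in plasma, 7.18 times (5.18 to 10.3) higher in serum like miR-342. miR-146a-5p and miR-146b, with log2 ratios of -1.45 and -1.61, and miR-142-3p, with -1.05, were on the plasma side, and all 3 turned with nothing removed, miR-142-3p also on the authors' RPM. miR-142-5p and miR-155-5p lay within 2-fold, at 0.35 and -0.18. The sum of the list was 2.26% of the remaining counts in serum and 3.56% in plasma, a plasma lean that turned when the 6 serum leaders were also removed, on the authors' RPM and with nothing removed, and without miR-146a-5p it was 10909 CPM in serum and 3548 CPM in plasma.

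Of 11 miRNAs known from platelets 3 were higher in serum, 5 higher in plasma and 3 within 2-fold, which is also near the shares of 19.9% and 40.8%. Both arms of miR-22 and both arms of miR-199a were on the plasma side, miR-199a-3p with 663 CPM in serum and 4608 CPM in plasma and a log2 ratio of -2.80 that turned with nothing removed. miR-126-3p, shared with endothelium, had 4629.9 CPM in serum and 1845 CPM in plasma, 2.51 times (2.18 to 2.90) higher in serum, and miR-191 was 2.06 times (1.86 to 2.29) higher there. The platelet list summed to 4.71% of the remaining counts in serum and 10.7% in plasma, and without miR-22-3p to 44923 CPM in serum and 59130.4 CPM in plasma. The full sum turned to the serum side on the authors' RPM and with nothing removed, and the reduced one already with TMM. What part platelets, which clotting activates, had in these differences was not tested. miR-223, another platelet and myeloid miRNA, was not analysed here. In the endothelial list, miR-221-3p had 1134 CPM in serum and 4174 CPM in plasma and a log2 ratio of -1.88, which turned with nothing removed.

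Liver and muscle miRNAs were mostly on the plasma side. None of the 6 liver miRNAs was 2-fold higher in serum and 4 were higher in plasma, against 40.8% of all miRNAs compared. Their sum was 20.7% of the remaining counts in serum and 29.9% in plasma, and without miR-148a-3p it was 18249 CPM in serum and 163057 CPM in plasma, most of it from miR-122 and miR-192 in plasma. The first of these differences turned to the serum side with TMM, and the second with nothing removed. Of 6 striated muscle miRNAs 4 were higher in plasma, beside 40.8% of all miRNAs compared, and 2 within 2-fold, at summed log2 -1.32 (-1.45 to -1.19). Of the 4, miR-133a-5p was at 0 in serum and so could only be called higher in plasma. miR-206 of skeletal muscle had 257 counts in serum and 437 in plasma and a log2 ratio of -2.69, while miR-133a-3p had 375 counts in serum and 135 in plasma and -0.45. Smooth muscle and fibroblast miRNAs had 6 of 8 members higher in plasma and 1, miR-214, higher in serum, beside 40.8% and 19.9% of all miRNAs compared. The 6 are the arms of miR-143, miR-145 and miR-199a, and of these miR-143-5p was at 0 in serum. miR-143-3p had 2113 CPM in serum and 7639 CPM in plasma and a log2 ratio of -1.85. The sums of the striated and smooth muscle lists and the values of miR-206, miR-133a-3p and miR-143-3p turned to the serum side with nothing removed, the striated muscle sum also on the authors' RPM, and miR-133a-3p under the same 5 scalings as miR-21.

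The let-7 family, taken by hairpin so that both arms of let-7d and the relative miR-98 are included, lay on the serum side. Of its 9 miRNAs 7 were higher in serum by 2-fold or more and none was higher in plasma, against 19.9% and 40.8% of all miRNAs compared. All 9 had a log2 ratio above 0, with a median of 1.83. let-7f had 24037 counts (52919 CPM) in serum and 468 counts (3907 CPM) in plasma, 13.5 times (12.4 to 14.9) higher in serum. let-7g had 60743 CPM in serum and 8148 CPM in plasma, 7.46 times (6.99 to 7.95) higher, and let-7i 57234 CPM in serum and 19869 CPM in plasma, 2.88 times (2.76 to 3.01) higher. let-7c and let-7e were the members within 2-fold, at 0.77 and 0.46. The family held 21.7% of the remaining counts in serum and 4.98% in plasma, a log2 ratio of 2.12 (2.08 to 2.16). let-7 members differ by few bases, as do miR-23a and miR-23b or miR-10a and miR-10b, and how shared reads were assigned is not stated, so the split among such members is less certain than their sum.

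The miR-30 family had 4 of 9 miRNAs higher in serum and 2 in plasma, beside 19.9% and 40.8% of all miRNAs compared. miR-30b-5p, miR-30c-5p and miR-30d were higher in serum, by 7.70 times (5.04 to 12.4), 14.6 times (8.67 to 26.9) and 4.61 times (4.20 to 5.06). miR-30e-3p was 3.44 times (2.50 to 4.85) higher there. miR-30a-5p, miR-30e-5p and miR-30a-3p were within 2-fold, with log2 ratios of -0.28, -0.02 and 0.44. The 3p arms of miR-30b and miR-30c were listed in plasma and not in serum, with 15 and 17 counts. In the miR-15/16 seed family miR-15b had 84 counts in serum and 0 in plasma and was at least 2.22 times (lower end 1.15) higher in serum.

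In the miR-17-92 cluster and its paralogs 2 of 12 miRNAs were higher in serum, 3 higher in plasma, 4 within 2-fold and 3 not placed, beside 19.9% and 40.8% of all miRNAs compared. The difference of the summed list, 3.94% of the remaining counts in serum and 1.02% in plasma, came from miR-92a: without it the sums were 5365 CPM in serum and 4984 CPM in plasma. miR-20a had 2215 CPM in serum and 1494 CPM in plasma and a log2 ratio of 0.57. The miR-23/24/27 clusters summed to nearly equal shares, 4.73% of the remaining counts in serum and 4.93% in plasma, through opposed members: miR-23a and miR-23b were higher in serum and miR-27b-3p, with 9614 CPM in serum and 20812 CPM in plasma, had a log2 ratio of -1.11 that turned on the authors' RPM and with nothing removed.

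Smaller families were divided. Serum was higher in miR-10b and miR-10a-5p, encoded in the HOX clusters, by 2.995 times (2.62 to 3.44) and 2.51 times (2.20 to 2.87). In the cluster that encodes miR-182, miR-183 and miR-96, miR-183 had a log2 ratio of 0.18, against 3.86 for miR-182. miR-181a and miR-181d-5p had 0.48 and -0.57, miR-29a -0.43, miR-151-3p -0.64 and miR-532-5p 0.71, all within 2-fold. miR-100 had 1094 counts in serum and 1283 in plasma and -2.15, miR-28-3p -1.10 and miR-500 -1.03. miR-100, miR-28-3p and miR-500 turned to the serum side with nothing removed, and miR-28-3p and miR-500 also on the authors' RPM. In the miR-148 and miR-152 family the 3p miRNAs miR-148b-3p and miR-152 were within 2-fold with the 6 removed, at 0.61 and -0.78. In the miR-99, miR-100 and miR-125 family miR-125b was higher in serum, with 145 counts in serum and 14 in plasma, while miR-99b had 75 counts in serum and 62 in plasma and a log2 ratio of -1.65 that turned with nothing removed.

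The DLK1-DIO3 locus, whose miRNAs come from the maternal chromosome, had 3 miRNAs listed in these fluids, of 20 in the files. All 3 were called higher in plasma, beside 40.8% of all miRNAs compared. Only miR-127 was listed in both fluids. miR-370 and miR-382 were at 0 in serum, where every miRNA listed in plasma is called higher in plasma. miR-127 was described above, miR-370 had 0 counts in serum and 44 in plasma and was at least 16.7 times (lower end 8.27) higher in plasma, and miR-382 had 0 counts in serum and 35 in plasma. miRNAs with high catalogue numbers, from 2000 upward, many of them first named in livestock, are given beside them. Of 19 compared, 11 were higher in plasma, beside 40.8% of all miRNAs compared, and 2 higher in serum, beside 19.9%. A further 2 were within 2-fold and 4 not placed, and 7 of the 11 were at 0 in serum. Their most abundant member, miR-7134-3p, had 2749.7 CPM in serum and 10577 CPM in plasma and a log2 ratio of -1.94, which turned with nothing removed. miR-2320-5p and miR-2320-3p were the exceptions, with 707 and 133 counts in serum and 38 and 0 in plasma.

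**Figure D4:**
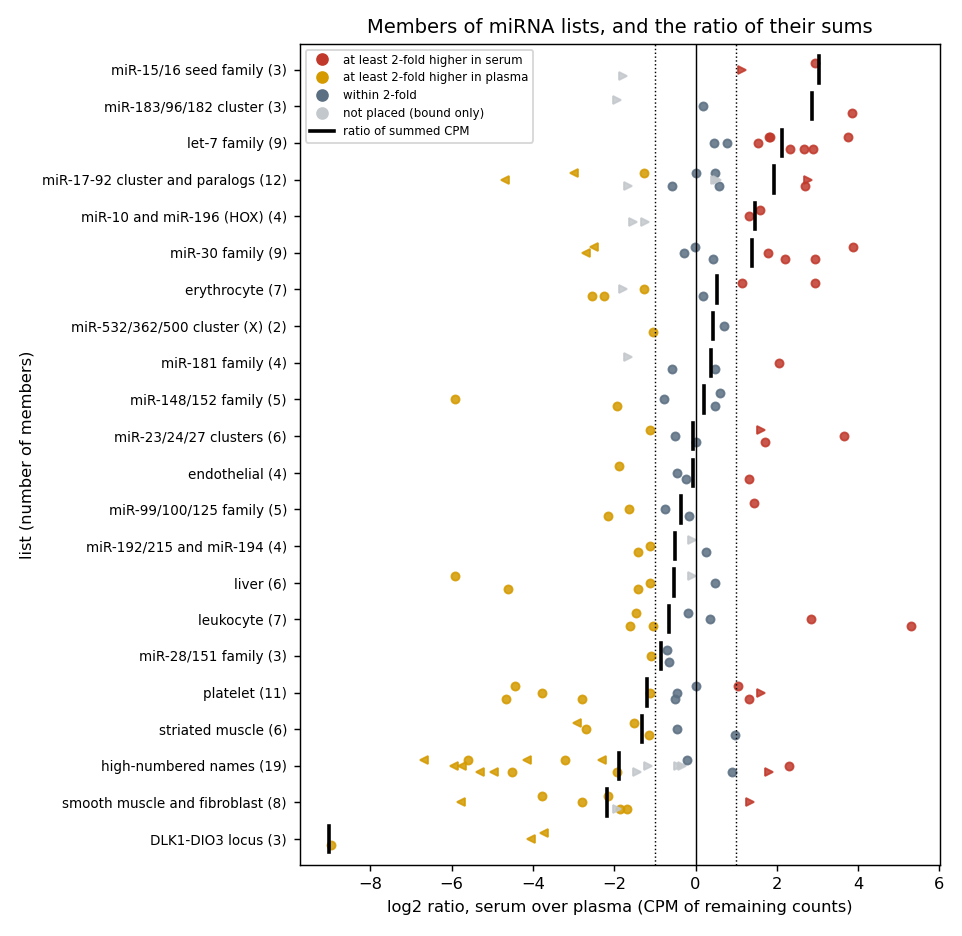
Log2 ratio of serum over plasma (x axis) of every member of 22 lists with more than 1 member (y axis), coloured by class, with triangles for bounds and a black bar for the ratio of the summed CPM; dotted lines mark 2-fold. The let-7 family lies wholly above 0 while the erythrocyte, leukocyte and platelet lists spread to both sides, and points less than 3.21 below 0 change sign with nothing removed.

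Some miRNAs outside these lists are named here after their values were seen. miR-26a, found in many tissues, had 8728 counts (19215 CPM) in serum and 356 counts (2972 CPM) in plasma, 6.47 times (5.81 to 7.21) higher in serum. miR-140-5p, from the same hairpin as miR-140-3p, had 87 counts in serum and 0 in plasma and was at least 2.29 times (lower end 1.19) higher in serum. On the other side, miR-1307 had 269 counts in serum and 2206 in plasma, 31.1 times (27.4 to 35.4) higher in plasma, and miR-769-5p had 219 counts in serum and 2020 in plasma, 34.98 times (30.4 to 40.4) higher. miR-210, which low oxygen induces, had 32 counts in serum and 199 in plasma, 23.6 times (16.2 to 35.4) higher in plasma. All 3 belong to the 25 miRNAs that stayed 2-fold higher in plasma under those 6 scalings. miR-186 had 3628 CPM in serum and 13466 CPM in plasma and a log2 ratio of -1.89, which turned with nothing removed. Near the 2-fold limit stood miR-191 at 1.04 and miR-1 at 0.97 on the serum side, and miR-500 at -1.03 and miR-1343 at -0.97 on the plasma side.

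The arms of 1 hairpin can be compared within a library, free of scaling and removal. Both arms had 10 or more counts in both fluids for 17 hairpins. miR-339 is left aside, since an entry that names no arm held most of its counts, 420 in serum and 1694 in plasma, against 86 and 10 for its 5p and 11 and 68 for its 3p entry. Over the other 16 the ratio of 5p over 3p was higher in serum for 7 and higher in plasma for 9, with a median difference of 3.47 times. The counting intervals of the fluids overlapped for 6 hairpins. miR-148a and miR-671 differed by the widest margins, 83.2 and 79.7 times, and their order is not resolved. The ratio of miR-148a was 0.00243 in serum (0.00211 to 0.00279) and 0.202 in plasma (0.195 to 0.210). That of miR-671 was 0.909 in serum (0.346 to 2.36) and 72.4 in plasma (49.6 to 110.2), resting on 10 and 11 counts in serum, so its leading arm there is not known. For 3 hairpins the arms changed places, with 5p ahead in serum, 3p ahead in plasma and both intervals clear of equal arms. The ratio of miR-139 was 17.04 in serum (12.7 to 23.3) and 0.375 in plasma (0.192 to 0.694). That of miR-425 was 2.28 in serum (1.93 to 2.71) and 0.556 in plasma (0.417 to 0.735), and that of miR-142 was 1.94 in serum (1.67 to 2.27) and 0.738 in plasma (0.567 to 0.957). For miR-423, whose 5p arm was among the 6 removed, the ratio was 4.28 in serum (4.06 to 4.52) and 104 in plasma (98.9 to 108). The remaining 3p arm was itself higher in plasma, with 3571 CPM in serum and 15686 CPM in plasma. By contrast, miR-22 kept nearly the same ratio while both its arms were higher in plasma, at 0.0618 in serum (0.0470 to 0.0799) and 0.0726 in plasma (0.0655 to 0.0802).

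**Figure D5:**
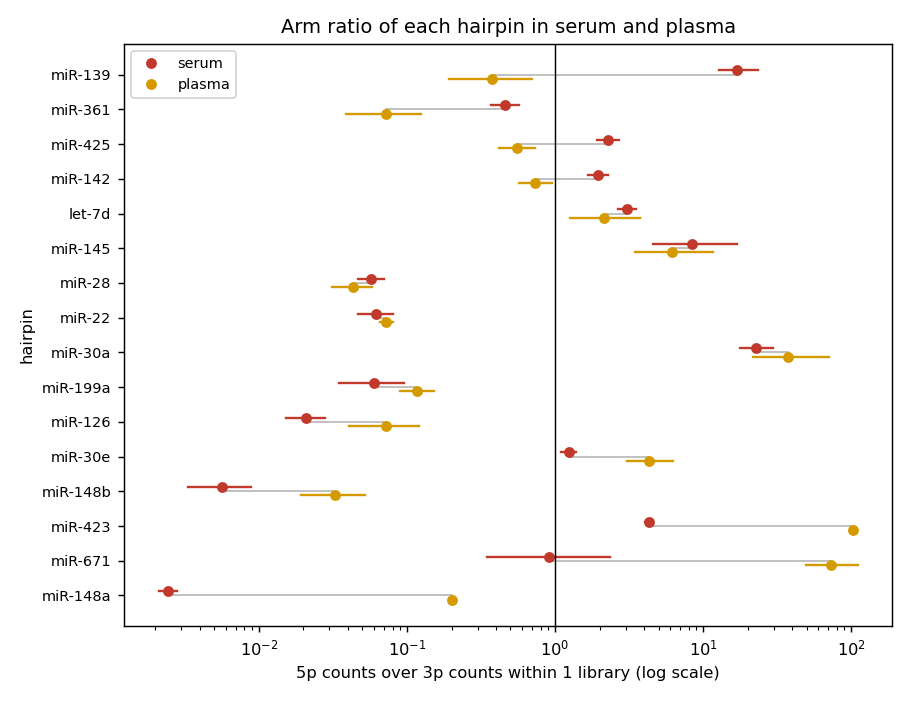
Counts of the 5p arm over those of the 3p arm (x axis, log scale) of 16 hairpins (y axis) in the serum and plasma libraries, with 95% counting intervals; the vertical line marks equal arms. miR-139, miR-425 and miR-142 lie on opposite sides of the line in the fluids, and the ratio of miR-148a is 83.2 times higher in plasma.

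Position in the genome was taken from RefSeq genes of assembly Sscrofa11.1, which is not the build of the files, so it was used only to find neighbours. Of the 196 miRNAs 190 matched a gene, and 26 groups of at least 2 hairpins lay within 10 kb of each other. Of these groups 7 had at least 1 miRNA called higher in serum and none in plasma, 6 the reverse and 9 both. The group of let-7a, let-7f and let-7d had all 4 of its miRNAs higher in serum. That of miR-143 and miR-145 had all 4 arms higher in plasma, and the pairs miR-206 with miR-133b and miR-192 with miR-194a were higher in plasma too. With nothing removed these pairs and all arms but miR-143-5p turned to the serum side, as did miR-133b and miR-194a on the authors' RPM. miR-451 and miR-144 lay on opposite sides, at log2 1.15 and -2.54. Several of these miRNAs are encoded by more than 1 gene and were counted in each group, so the groups are not independent.

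The other fluids gave a readout that the choice of the 6 miRNAs did not use, scaled after the same removal. Of the 39 miRNAs higher in serum, 34 were also listed in semen, 23 in urine and 35 in bile, and 1 was listed in none of them. Of the 80 higher in plasma, 46 were listed in semen, 23 in urine and 52 in bile, and 19 in none. The 43 miRNAs within 2-fold were like the serum ones in this, with 38 listed in semen, 23 in urine and 39 in bile, and 2 in none. The 34 not placed, all at 0 in plasma, had 26 listed in semen, 5 in urine and 24 in bile, and 5 in none. Of the 19 plasma miRNAs in none, 13 were at 0 in serum, where every miRNA listed in plasma is called higher in plasma. The contrast between the serum and plasma classes thus rests in part on the rule for calling. Among miRNAs with 100 or more counts in serum or plasma, 1 of 35 serum miRNAs and 7 of 46 plasma miRNAs, and 2 of 32 within 2-fold, were in none of the other fluids. Across the 196 miRNAs Spearman's rho with bile was 0.73 for serum and 0.46 for plasma, that with urine 0.59 and 0.43, and that with semen 0.61 and 0.34. With serum brought to the remaining plasma depth its values were 0.70, 0.59 and 0.58 in the same order. Serum shared 12 of its 20 leading miRNAs with those of bile, and plasma 7. Of the plasma leaders, miR-122 stood at 54810.5 CPM in bile, while miR-148a-5p stood at 86.9 CPM in bile and 1620.0 CPM in semen. miR-671-5p was listed at 0 in all 3.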

How the data were processed

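Small RNA of exosomes from pig serum and plasma was sequenced, with 1 library each. Whole-number read counts per miRNA and normalized values were deposited by the authors. The counts were used as deposited, and they hold no value between 0 and 10. The second column, read as RPM from its values, was deposited with a scaling to a library total larger than the miRNA sum, and this total was recovered from the counts. Per the submitters' processing notes bcl2fastq 2.17 and the build Sscrofa10.2 were used, and no aligner is named there.

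After removal of the 6 miRNAs, counts were scaled to the remaining sum (454225 in serum, 119786 in plasma). Intervals of ratios come from the exact conditional binomial distribution, and those of shares are Clopper-Pearson, at 95%. Alternative scalings used edgeR 4.0.16 (TMM) and DESeq2 1.42.0 (size factors), neither for a test. The 2-fold calls and the intervals were tried on simulated counts with known shares. That simulation left out the choice of scaling and the variation between libraries, so it cannot speak to either. The median is over miRNAs listed above 0 in both libraries. Marker and family lists come from textbook knowledge. The miRNAs compared and the lists were chosen with earlier results of these data known.

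Named are the 10 most abundant miRNAs of each library, the 8 with the largest ratios and the 5 with the largest rank changes each way among those with 100 or more counts in either, the 5 most abundant within 2-fold, the 2 most abundant of each of 23 lists and the 6 removed. The planned description of mature sequences was not made. Alternatives tried were other scalings, removals, count minimums, readings of a listed 0, depths and fold limits, and arms summed per hairpin.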

Additional observations from a re-analysis of the deposited data

How the results depend on the processing

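Each scaling adds 1 constant to all log2 ratios. Where it moves ratios towards serum, the 39 miRNAs higher in serum could only keep that call, save 5 taken out with the 6 serum leaders. Without miR-122, whose removal moves ratios towards plasma, 38 kept it. Against 39 higher in serum and 80 in plasma, 145 and 25 were called with nothing removed and 77 and 48 on the authors' RPM. With TMM 56 and 65 were called, with DESeq2 size factors 46 and 72, and with only 3 miRNAs removed 57 and 65 of the same 196. At 4-fold the counts were 21 and 53. Of the 113 miRNAs with 100 or more counts in either library, 35 were higher in serum and 46 in plasma. Summing the arms gave 34 and 62. The share of serum among the called miRNAs was 32.8%, against 46.3% with TMM, 61.6% on the authors' RPM and 85.3% with nothing removed. The median log2 ratio of -0.57 became 0.0448 with TMM, -0.22 with DESeq2 size factors, 2.64 with nothing removed, 0.80 on the authors' RPM, 0.0509 with 3 miRNAs removed and 0.0920 with the 6 serum leaders removed as well. It was -0.18 with 100 or more counts in either, -0.0177 at equal depth, -0.19 with a listed 0 read as 3 counts, and, in alternatives chosen after seeing the data, -1.09 with a listed 0 at its bound and -0.69 without miR-122. Rank agreement was 0.43 with 100 or more counts in either.

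With nothing removed these log2 values of 2-fold or more towards plasma turned to the serum side: the list medians of liver at 1.78, striated muscle at 2.08, smooth muscle and fibroblast at 1.06, miR-192, miR-215 and miR-194 at 2.09 and high-numbered names at 1.27, and miR-192 at 1.78, miR-146a-5p at 1.76, miR-185 at 0.96, miR-27b-3p at 2.09, miR-221-3p at 1.33, miR-206 at 0.52, miR-143-3p at 1.36, miR-199a-3p at 0.41, miR-100 at 1.06, miR-28-3p at 2.11, miR-500 at 2.175 and miR-7134-3p at 1.27. On the authors' RPM the medians of striated muscle turned to 0.23 and of miR-192, miR-215 and miR-194 to 0.25, as did miR-27b-3p with 0.25, miR-28-3p with 0.27 and miR-500 with 0.33. In either case 9 list medians and 7 named miRNAs nearer to 0 turned as well. These turns follow from the constant shifts alone. No paired analysis was possible because each fluid has 1 library. Plasma depth limits low miRNAs: a listed 0 allows up to 83.5 CPM there and 22.0 CPM in serum.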

Other observations

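The 41 miRNAs listed in serum and at 0 in plasma had between 10 and 541 counts, with a median of 17, and 12 of them would still be listed at the remaining plasma depth. The 22 miRNAs listed in plasma and at 0 in serum had between 10 and 272 counts, with a median of 51, although serum was the deeper library after the removal. Of these 22, 13 were listed in none of semen, urine and bile, and 7 carry high catalogue numbers. Minor arms were among them: miR-143-5p with 144 counts, miR-17-3p with 68 and miR-133a-5p with 20. miR-874 with 55 counts and miR-9-2 with 63, the second a name of a brain-enriched miRNA, were also listed in semen, at 84 and 111 counts. These miRNAs were chosen after their values were seen.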
